A study of Mus musculus with 8 samples.

Results

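Heat shock chaperones are the proteins that fold newly made and damaged polypeptides. Their mRNA was measured here in bone marrow-derived dendritic cells (BMDCs) exposed to a drug that takes microtubules apart. The set comprised 10 genes, chosen by name from the 23356 genes of the table: *Hspa1a*, *Hspa1b*, *Hspa8*, *Hsp90aa1*, *Hsp90ab1*, *Hsph1*, *Dnajb1*, *Bag3*, *Hspd1* and *Hspe1*. All 10 were found, each once. The 4 groups were WT control, WT treated with ansamitocin-P3 at 100 nM for 5 h, GEF-H1-/- control and GEF-H1-/- treated in the same way. Controls were untreated cells kept for the same 5 h, all mice were of C57BL/6 background (C57BL/6N in the study's methods), and the cells of every group had been grown from bone marrow with GM-CSF and IL-4. Each group had 2 RNA-seq libraries, 8 in all, but the table gives 1 value per gene and group, pooled over the pair by Cuffdiff. Values are FPKM, fragments scaled by transcript length and by the mapped fragments of the library, which are per length and so can be set side by side between genes. Each comes with the 95% interval of the Cuffdiff model. Without single-library values there is no SD between replicates and no p-value, and the sources used here do not say whether the duplicates came from separate mice.

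GEF-H1, encoded by *Arhgef2*, is an exchange factor for RhoA that is held on microtubules and freed when they come apart, and the comparison of genotypes asks which parts of the drug response need it. *Arhgef2* (chr3:88616207-88648052) measured 42.3 FPKM (95% interval 34.5 to 50) in WT DCs without the drug and 45.9 (36.9 to 54.9) in treated WT DCs. In GEF-H1-/- DCs it measured 4.59 (3.54 to 5.63) without and 4.16 (3.22 to 5.11) with the drug, so the genotype labels and the targeted gene run the same way. Of the dendritic cell marker list 8 of 8 genes were above 0 in all groups, with sums of 4781, 6452, 4080 and 4594 FPKM in the order of groups given above. With the drug in WT DCs, 5 of 8 had a log2 ratio above 0 and 3 below. Of all genes with at least 1 FPKM in a group, 50.1% lay above and 49.6% below. With intervals apart, 1 of 8 was higher (9.19% of all genes) and 2 were lower (7.58%). As examples chosen after their values were seen, *Cd74*, the invariant chain of MHC class II, measured 3676, 4935, 3073 and 3331 FPKM in the same order, *H2-Ab1* 633, 623, 506 and 517, and *Itgax*, which encodes CD11c, 102, 132, 129 and 175. No gene of the dendritic cell, macrophage, neutrophil, B cell, T cell or basophil and mast cell marker lists was at 0 in any group.

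The heat shock response is a transcriptional programme in which heat shock factor 1, held inactive by chaperones in unstressed cells, is released when unfolded protein accumulates and binds heat shock elements, which are alternating GAA and TTC units, in the promoters of chaperone genes. Some chaperone genes, *Hspa8* and *Hsp90ab1* among them, are transcribed at a high rate in unstressed cells, whereas *Hspa1a* and *Hspa1b* are the classic inducible genes. In dendritic cells chaperones also take part in antigen handling, and Hsp70 released from cells can be taken up by them.

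The RefSeq promoter table (GRCm38.p6, from 250 bases before to 50 after each start) held windows for 7 of the 10 genes: *Hspa1a*, *Hspa1b*, *Hsph1*, *Dnajb1*, *Bag3*, *Hspd1* and *Hspe1*. *Hspa8*, *Hsp90aa1* and *Hsp90ab1* were not matched. Matches to 3 units, GAA, NN, TTC, NN and GAA in a row or TTC, NN, GAA, NN and TTC in a row, where N is any base, were searched on both strands with exact letters, and one motif is the reverse complement of the other. Such a match was found for 3 genes, *Hspd1*, *Hspe1* and *Hsph1*, and in 0.603% of all 32851 windows of this length. Matches to 2 units, GAA, NN and TTC or TTC, NN and GAA, which every longer match contains, were found for 6 of the 7 genes and in 15.1% of all windows. A match describes the letters and was not measured as a binding site.

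The first stretch is shown because *Hspd1* and *Hspe1*, the mitochondrial chaperonin pair, share it: the genes lie head to head with 215 bases between their deposited loci, and the match, in capitals, is a run of 4 alternating units at chr1:55088059-55088076. Its first base is at position -89 from the *Hspe1* start, and the sequence is printed on the *Hspe1* strand. The second stretch is shown because *Hspa1a* and *Hspa1b*, the inducible pair, have the same letters there. The capitals mark a 2-unit match at position -104 of both genes, and the upstream sequences of the pair differ at 3 of 250 bases, of which 0 fall in the printed stretch.
Hspe1 and Hspd1, chr1:55088025-55088131, plus strand: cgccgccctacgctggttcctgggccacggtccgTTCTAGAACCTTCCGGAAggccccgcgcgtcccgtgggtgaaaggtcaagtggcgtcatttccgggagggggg
Hspa1a, chr17:34972207-34972306, minus strand (in Hspa1b at chr17:34959289-34959388, minus strand): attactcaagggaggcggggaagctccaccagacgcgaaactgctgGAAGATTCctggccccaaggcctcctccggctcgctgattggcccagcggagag

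The 3-unit match of *Hsph1* lay past the start, at position 15 or 36 from its annotated starts. *Bag3* held a 2-unit match at position 42, also past the start, and *Dnajb1* held no match of either length.

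Levels of the 10 genes spanned about 4 orders of magnitude, and the order changed little between groups. In control WT DCs *Hspa8* was highest, followed by *Hsp90ab1*, *Hspe1*, *Hsp90aa1*, *Hspd1*, *Hsph1*, *Dnajb1*, *Bag3*, *Hspa1b* and *Hspa1a*. Among neighbours in that order, the intervals of *Hspe1* and *Hsp90aa1*, of *Hsp90aa1* and *Hspd1*, and of *Hsph1* and *Dnajb1* overlapped, and those of the other neighbours did not. In the other 3 groups *Hsp90aa1* came directly after *Hsp90ab1*, with an interval that overlapped the next gene only in control GEF-H1-/- cells. In those 3 groups the intervals of *Dnajb1* and *Bag3* overlapped, and in both treated groups those of *Hspa1b* and *Hspa1a* did. *Hspa8* ranked 47th among all genes in control WT DCs and *Hsp90ab1* 113th. Together these genes made up 78.9% of the summed FPKM of the 10 genes in untreated WT cells, 78.2% in WT cells given the drug, 77.2% in untreated GEF-H1-/- cells and 77.2% in GEF-H1-/- cells given the drug, where the sums were 2826, 2889, 2947 and 3196 FPKM.

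**Figure D1:**
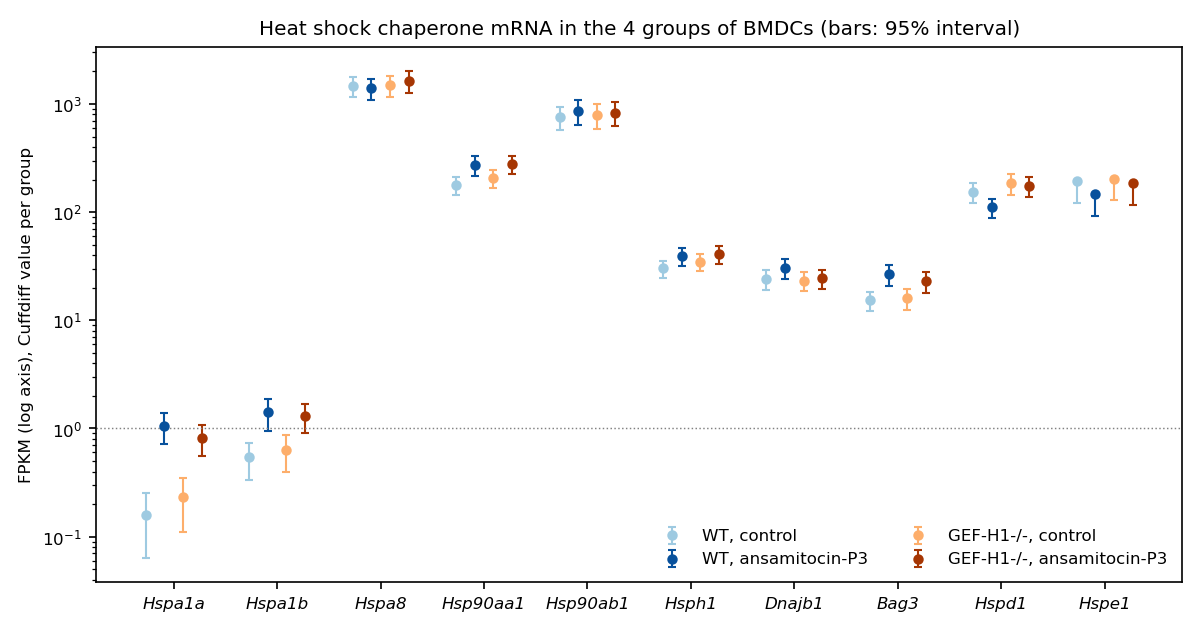
FPKM (log axis) of the 10 heat shock chaperone genes in the 4 groups of BMDCs; points are the single Cuffdiff value of each group, bars its 95% interval, and the dotted line is at 1 FPKM. *Hspa8* lies between 1402 and 1635 FPKM, whereas *Hspa1a* and *Hspa1b* lie below 1 FPKM in both control groups and between 0.820 and 1.42 FPKM in the treated groups.

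The question put to the set was which chaperone mRNAs differed after 5 h of microtubule disassembly. The inducible Hsp70 genes *Hspa1a* and *Hspa1b* were higher after ansamitocin-P3 in both genotypes, by 2.04- to 6.63-fold from a level below 1 FPKM. *Hsp90aa1* and *Bag3* were higher by 1.34- to 1.75-fold. The abundant *Hspa8* and *Hsp90ab1* had overlapping intervals in all groups, and the mitochondrial pair *Hspd1* and *Hspe1* had their lowest values in treated WT DCs. A gene was counted as changed when the log2 ratio of FPKM + 1 was over 1 or under -1; this scale understates the change of genes near or below 1 FPKM. By this rule 0 of 10 genes changed with the drug in WT DCs, where 4.94% of the 11397 genes with at least 1 FPKM in a group did, and 0 of 10 in GEF-H1-/- DCs, where 1.08% did. The second rule asked that the Cuffdiff intervals of control and treated cells lie apart. By it 4 of 10 genes were higher in treated WT DCs (9.19% of all genes) and 2 of 10 in treated GEF-H1-/- DCs (2.75%), while 0 of 10 were lower in WT (7.58%) or GEF-H1-/- DCs (0.956%). Of the 10 genes, *Hspa1a* reached 1 FPKM only in treated WT DCs and *Hspa1b* only in the treated groups, so both entered through the groups in which they are high. Among the other 8 genes, 2 were higher with intervals apart for WT and 0 for GEF-H1-/- DCs. These are bulk samples, in which fewer cells of a type and less RNA per cell cannot be told apart.

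The median log2 ratio of the 10 genes was 0.34 in WT DCs, beside 0.00 for all genes, and 0.18 in GEF-H1-/- DCs, beside -0.01. Without *Hspa1a* and *Hspa1b* the medians were 0.25 and 0.11. After rescaling to housekeeping genes, *Hspa1a* fell under the filter. The medians of the remaining genes were then 0.18 and 0.12, beside -0.12 and -0.02 for all genes. A log2 ratio above 0 was seen for 7 of 10 genes in WT (50.1% of all genes) and for 8 of 10 in GEF-H1-/- DCs (47.6%). With a threshold of 1.5-fold on the same scale, 4 of 10 genes were higher in treated WT DCs (9.65% of all genes) and 0 of 10 in treated GEF-H1-/- DCs (2.78%). Without *Hspa1a* and *Hspa1b* the count was 2 of 8 in WT.

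Among the Hsp70 genes, *Hspa1a* and *Hspa1b* had the largest ratios of the set, from a very low level. Both encode the stress-inducible cytosolic Hsp70 and are near-identical neighbours on chromosome 17. *Hspa1a* (chr17:34969359-34972156) measured 0.159 FPKM (0.0633 to 0.253) in untreated WT cells, 1.051 (0.712 to 1.38) in WT cells given the drug, 0.233 (0.111 to 0.348) in untreated GEF-H1-/- cells and 0.820 (0.554 to 1.08) in GEF-H1-/- cells given the drug. Both treated groups were above both control groups, with no overlap of intervals. The ratio of FPKM was 6.63 in WT DCs, with a 95% interval of 3.37 to 13.1 carried over from the Cuffdiff intervals, and 3.53 (1.93 to 6.44) in GEF-H1-/- DCs. As log2 of FPKM + 1 these differences were 0.82 and 0.56.

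*Hspa1b* (chr17:34956429-34959238) measured 0.541 FPKM (0.331 to 0.741) in untreated WT cells, 1.42 (0.946 to 1.88) in WT cells given the drug, 0.634 (0.394 to 0.867) in untreated GEF-H1-/- cells and 1.29 (0.899 to 1.69) in GEF-H1-/- cells given the drug. Here too the treated groups stood above the control groups in both genotypes. The ratio was 2.62 (1.59 to 4.33) for WT and 2.04 (1.26 to 3.30) for GEF-H1-/- DCs, or 0.65 and 0.49 on the log2 scale of FPKM + 1. Taking the ratio of FPKM itself, without a pseudocount, *Hspa1a* and *Hspa1b* were the 2 of 10 genes more than 2-fold higher in WT (5.07% of all genes) and again the 2 of 10 in GEF-H1-/- DCs (1.24%); this rule was added after the data were seen. As the pair is in the filtered table only through treated groups, these counts are no support for the set, and 0 of the other 8 genes passed this rule in either genotype. The pair cannot be read fully apart: of all stretches of 35 bases, the length of 1 read of a pair, 62.6% of those of the *Hspa1a* transcript also occur in *Hspa1b* and 66.3% of those of *Hspa1b* in *Hspa1a*. Their summed FPKM was 0.699 in untreated WT cells, 2.47 in WT cells given the drug, 0.867 in untreated GEF-H1-/- cells and 2.11 in GEF-H1-/- cells given the drug.

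*Hspa8* (chr9:40801273-40805199) encodes Hsc70, the constitutive cytosolic Hsp70, which also uncoats clathrin vesicles. It measured 1475 FPKM (1166 to 1784) in untreated WT cells, 1402 (1093 to 1712) in WT cells given the drug, 1491 (1168 to 1814) in untreated GEF-H1-/- cells and 1635 (1266 to 2003) in GEF-H1-/- cells given the drug. All 4 intervals overlapped. The ratio with the drug was 0.951 (0.701 to 1.29) for WT and 1.10 (0.802 to 1.499) for GEF-H1-/- DCs. The level of *Hspa8* was 2109 times the sum of *Hspa1a* and *Hspa1b* in control WT DCs and 568 times that sum in treated WT DCs; the corresponding values in GEF-H1-/- DCs were 1720 and 774. Of its 35-base stretches 78.6% also occur in other annotated genes, chiefly in *Gm15459* (73.4%), so that its level depends on how the authors' counting placed such reads.

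*Hsph1* (chr5:149616845-149636315) encodes Hsp110, a nucleotide exchange factor of Hsp70. It measured 30.1 FPKM (24.6 to 35.7) in untreated WT cells, 39.1 (31.8 to 46.5) in WT cells given the drug, 34.8 (28.4 to 41.1) in untreated GEF-H1-/- cells and 40.9 (33.4 to 48.5) in GEF-H1-/- cells given the drug. Treated cells had the higher value in both genotypes, with overlapping intervals. The ratio was 1.30 (0.998 to 1.69) for WT and 1.18 (0.909 to 1.53) for GEF-H1-/- DCs.

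*Dnajb1* (chr8:83608175-83611903) encodes Hsp40, a J-domain protein that delivers substrates to Hsp70 and stimulates its ATPase. It measured 24.1 FPKM (19.2 to 28.9) in untreated WT cells, 30.4 (24.0 to 36.6) in WT cells given the drug, 23.3 (18.6 to 27.9) in untreated GEF-H1-/- cells and 24.5 (19.6 to 29.5) in GEF-H1-/- cells given the drug. All 4 intervals overlapped, with the highest value in treated WT DCs. The ratio was 1.26 (0.945 to 1.69) for WT and 1.053 (0.793 to 1.40) for GEF-H1-/- DCs.

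*Bag3* (chr7:128523583-128546979) encodes a co-chaperone that couples Hsp70 to autophagy of its clients. It measured 15.3 FPKM (12.1 to 18.4) in untreated WT cells, 26.8 (20.7 to 32.3) in WT cells given the drug, 16.0 (12.5 to 19.3) in untreated GEF-H1-/- cells and 23.0 (18.02 to 27.8) in GEF-H1-/- cells given the drug. The intervals lay apart for WT and overlapped for GEF-H1-/- DCs. Its ratio, 1.75 (1.30 to 2.37) for WT and 1.44 (1.06 to 1.95) for GEF-H1-/- DCs, was the largest among the 8 genes above 1 FPKM in every group, in both genotypes. None of its 35-base stretches occurs in another annotated gene, and the same holds for *Hsph1*.

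Of the Hsp90 genes, the inducible one was higher after the drug. Hsp90 is the cytosolic chaperone of kinases and steroid receptors; *Hsp90aa1* encodes its inducible and *Hsp90ab1* its constitutive form. *Hsp90aa1* (chr12:110691036-110696395) measured 177 FPKM (145 to 210) in untreated WT cells, 272 (216 to 329) in WT cells given the drug, 208 (169 to 247) in untreated GEF-H1-/- cells and 278 (224 to 333) in GEF-H1-/- cells given the drug. The WT intervals lay just apart, and overlapped once the groups were rescaled to housekeeping genes; those of GEF-H1-/- DCs overlapped. The ratio was 1.53 (1.16 to 2.02) for WT and 1.34 (1.02 to 1.76) for GEF-H1-/- DCs, and 61.8% of its 35-base stretches are shared with other genes.

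*Hsp90ab1* (chr17:45567778-45573261) measured 755 FPKM (579 to 936) in untreated WT cells, 857 (641 to 1078) in WT cells given the drug, 785 (590 to 989) in untreated GEF-H1-/- cells and 832 (626 to 1052) in GEF-H1-/- cells given the drug. All 4 intervals overlapped widely. The ratio was 1.14 (0.802 to 1.61) for WT and 1.06 (0.738 to 1.52) for GEF-H1-/- DCs. The constitutive gene was 4.26 times as high as the inducible one in control WT and 3.15 times in treated WT DCs, and 3.78 and 2.99 times in control and treated GEF-H1-/- DCs.

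The mitochondrial pair ran the other way in WT DCs. *Hspd1* encodes Hsp60, the barrel in which imported proteins fold, and *Hspe1* encodes Hsp10, its lid. *Hspd1* (chr1:55077834-55087932) measured 154 FPKM (120 to 186) in untreated WT cells, 110 (88.4 to 132) in WT cells given the drug, 185 (145 to 223) in untreated GEF-H1-/- cells and 175 (138 to 212) in GEF-H1-/- cells given the drug. Treated WT DCs were the lowest group, and their interval lay below those of both GEF-H1-/- groups and overlapped that of control WT DCs. The ratio with the drug was 0.718 (0.536 to 0.962) for WT and 0.947 (0.703 to 1.28) for GEF-H1-/- DCs.

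*Hspe1* (chr1:55088148-55091317) measured 194 FPKM (122.7 to 198) in untreated WT cells, 148 (92.3 to 149) in WT cells given the drug, 203 (129 to 207) in untreated GEF-H1-/- cells and 186 (117 to 189) in GEF-H1-/- cells given the drug. Its value lay near the upper bound of its interval in every group, which no other gene of the set showed, and all 4 intervals overlapped. The ratio was 0.761 (0.580 to 1.0001) for WT and 0.916 (0.698 to 1.203) for GEF-H1-/- DCs. *Hspd1* stood at 0.794 of the level of *Hspe1* in control WT and 0.748 in treated WT DCs, and at 0.908 and 0.939 in control and treated GEF-H1-/- DCs. Of the 35-base stretches many are shared with other annotated genes, 52.9% for *Hspd1* and 55.4% for *Hspe1*.

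**Figure D2:**
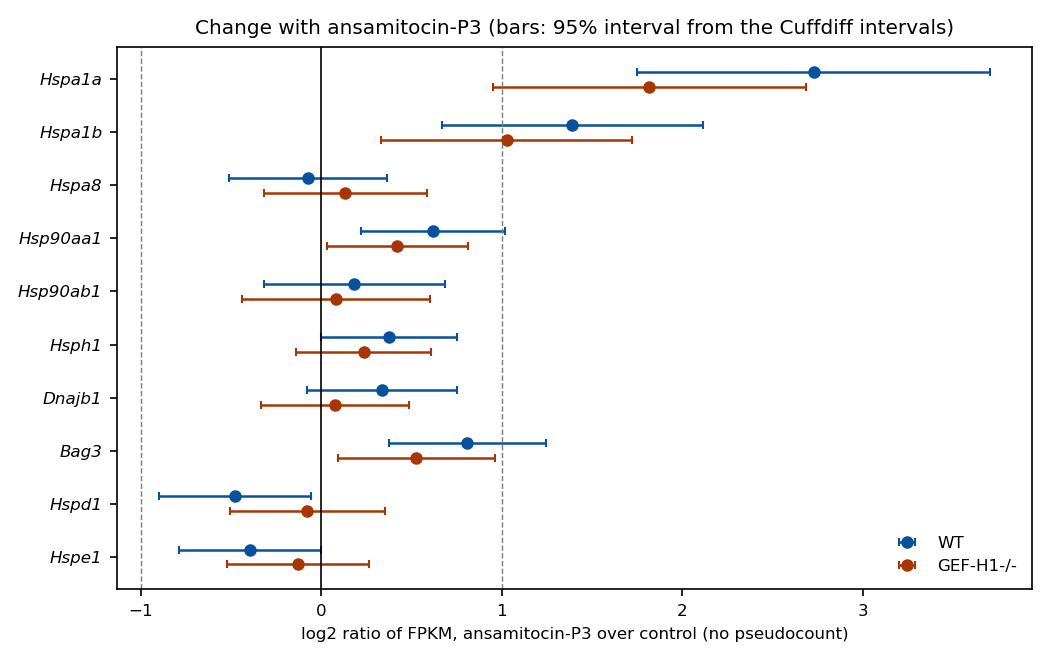
Log2 ratio of FPKM, ansamitocin-P3 over control, without a pseudocount, for the 10 genes in WT and GEF-H1-/- DCs; bars are 95% intervals carried over from the Cuffdiff intervals and dashed lines mark 2-fold. The bars of *Hspa1a*, *Hspa1b*, *Hsp90aa1* and *Bag3* lie above 0 in both genotypes, and that of *Hspd1* lies below 0 in WT DCs.

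Read by the interval of the ratio instead of by separate intervals, the same 4 genes, *Hspa1a*, *Hspa1b*, *Hsp90aa1* and *Bag3*, were above 1 in WT and in GEF-H1-/- DCs. This less strict rule, added after the data were seen, was met by 15.4% of all genes for WT and 5.61% for GEF-H1-/- DCs. As *Hspa1a* and *Hspa1b* are in the filtered table only through treated groups, their part of this count is no support for the set. Among the other 8 genes, *Hsp90aa1* and *Bag3* met the rule in both genotypes. In the other direction 1 of 10 genes, *Hspd1*, had an interval below 1 in WT DCs (14.5% of all genes) and 0 of 10 in GEF-H1-/- DCs (3.06%), so the share with lower values did not exceed that of all genes. These intervals treat the errors of the groups as independent and stem from the model of Cuffdiff.

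Whether the drug's effect depended on GEF-H1 was read from the ratio in WT divided by the ratio in GEF-H1-/- DCs. It was above 1 for 7 of 10 genes and below 1 for 3, *Hspa8*, *Hspd1* and *Hspe1*; for *Hsp90ab1* the direction turned after rescaling to housekeeping genes. For 10 of 10 genes its interval included 1, so that a genotype difference in the drug response was not detectable at this precision. The quotient was 1.88 (0.760 to 4.65) for *Hspa1a*, 1.29 (0.642 to 2.58) for *Hspa1b*, 1.22 (0.796 to 1.86) for *Bag3* and 1.14 (0.778 to 1.69) for *Hsp90aa1*. At the other end it was 0.758 (0.499 to 1.15) for *Hspd1*. By log2 of FPKM + 1, 0 of 10 genes had drug effects more than 1 apart between genotypes (1.90% of all genes), and the median difference of the set was 0.15, beside 0.01 for all genes. After rescaling to housekeeping genes, where *Hspa1a* fell under the filter, the median of the remaining genes was 0.0093, beside -0.10 for all genes.

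Between genotypes, 0 of 10 genes passed the 2-fold rule in control DCs (1.88% of all genes) or in treated DCs (4.06%). In control DCs 0 of 10 had intervals apart, higher (2.86%) or lower (1.88%) in GEF-H1-/- cells, and ratios of GEF-H1-/- to WT ran from 0.968 for *Dnajb1* to 1.47 (0.667 to 3.22) for *Hspa1a*. In treated DCs 1 of 10, *Hspd1*, was higher in GEF-H1-/- cells with intervals apart (7.02%), and 0 of 10 were lower (6.73%). The ratio for *Hspd1* was 1.58 (1.19 to 2.12), and it was the 1 of 10 genes with an interval of the ratio above 1 (12.6%). For its partner *Hspe1* the ratio was 1.26 (0.961 to 1.66). The control groups stood at a ratio of 1.201 (0.888 to 1.62) for *Hspd1*.

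Markers of other cells differed between the genotypes too. The 4 basophil and mast cell genes summed to 183 FPKM in control and 189 in treated WT DCs, against 356 and 341 in GEF-H1-/- DCs. In control GEF-H1-/- cells 4 of 4 were higher, as were 5435 of all 11397 genes. Of the 4, 3 had intervals apart (2.86% of all genes). The 4 neutrophil genes found of 5 listed summed to 30126 and 35546 FPKM in WT and to 20969 and 21427 in GEF-H1-/- DCs, with 2 of 4 higher and 2 of 4 lower in control GEF-H1-/- cells. The 5 macrophage genes summed to 222 and 168 FPKM in WT and to 263 and 236 in GEF-H1-/- DCs. In treated GEF-H1-/- cells 5 of 5 were higher than in treated WT cells, as were 5348 of all 11397 genes. Of the 5, 1 had intervals apart (7.02% of all genes). The B cell genes summed to between 3.06 and 6.43 FPKM and the T cell genes to between 10.1 and 16.9. Their part in the values of *Hspd1* or of any other chaperone gene was not tested.

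The remaining genes of the chaperone system were read from 9 lists. Of the heat shock factors and their regulator, 4 of 6 genes passed the filter and 0 changed by the 2-fold rule in either genotype. *Hsf1*, the master factor, measured 15.5 FPKM (12.4 to 18.7) in untreated WT cells, 17.3 (13.9 to 20.6) in WT cells given the drug, 19.3 (15.5 to 23.2) in untreated GEF-H1-/- cells and 18.5 (14.8 to 22.2) in GEF-H1-/- cells given the drug, with overlap throughout. *Hsf2*, a second factor that can pair with it, measured 16.1 FPKM (12.5 to 19.7), 27.2 (21.9 to 32.4), 15.7 (12.2 to 19.1) and 25.7 (20.3 to 31.1) in the same order. Its treated groups stood above its control groups with intervals apart in both genotypes, at log2 ratios of 0.72 and 0.68. *Hsf4* stayed between 1.03 and 1.37 FPKM, and *Hsbp1*, which encodes a binding partner of the factors, between 60.5 and 67.1.

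Of the other J-domain genes, 11 of 12 passed the filter, and 2 of them rose for WT and 0 for GEF-H1-/- DCs by the 2-fold rule. Of all genes 4.94% and 1.08% passed it, in either direction. *Dnajb5* rose in WT DCs from 3.70 to 10.3 FPKM, a log2 ratio of 1.26, and measured 3.90 and 7.42 in control and treated GEF-H1-/- DCs, a log2 ratio of 0.78 with intervals apart. *Dnajb2* rose from 4.88 to 11.2 FPKM in WT DCs, a log2 ratio of 1.054, and measured 7.05 and 9.33 in GEF-H1-/- DCs, a log2 ratio of 0.36. For *Dnajb2* the ratio in WT divided by that in GEF-H1-/- DCs was 1.74 (1.11 to 2.71), and for *Dnajb5* it was 1.46 (0.951 to 2.24). Both genes were picked for passing the rule in WT DCs, which favours a quotient above 1, so a genotype difference was not tested. The ratio of GEF-H1-/- to WT for *Dnajb2* was 1.44 (1.04 to 2.01) in control and 0.832 (0.615 to 1.12) in treated cells. The median log2 ratio over the 11 genes was 0.17 for WT and 0.05 for GEF-H1-/- DCs.

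In the 7 lists of other Hsp70 and Hsp110 genes, small heat shock proteins, Hsp70 exchange factors and BAG genes, Hsp90 co-chaperones, other mitochondrial chaperones, cytosolic chaperonin and prefoldin, and ER chaperones, 0 genes passed the 2-fold rule in either genotype. Their sizes past the filter were 6 of 8, 2 of 9, 8 of 8, 12 of 12, 9 of 9, 14 of 14 and 12 of 12. Small heat shock protein genes, which encode holdases of unfolded protein, were thus mostly below 1 FPKM, and *Hspb3* was listed at 0 in all groups. The mitochondrial list, which holds partners of *Hspd1* and *Hspe1* in protein import and turnover, had a median log2 ratio of -0.13 for WT and -0.03 for GEF-H1-/- DCs, and 8 of 9 genes lay below 0 in WT DCs, as did 49.6% of all genes. Intervals apart and lower were seen there for 1 of 9, *Dnaja3*, a share near the 7.58% of all genes. Genes of the ER chaperones had medians of -0.16 and -0.04, with 11 of 12 below 0 in WT DCs. Hsp90 co-chaperone genes had medians of -0.12 and 0.01, and the chaperonin and prefoldin genes 0.01 and 0.04.

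**Figure D3:**
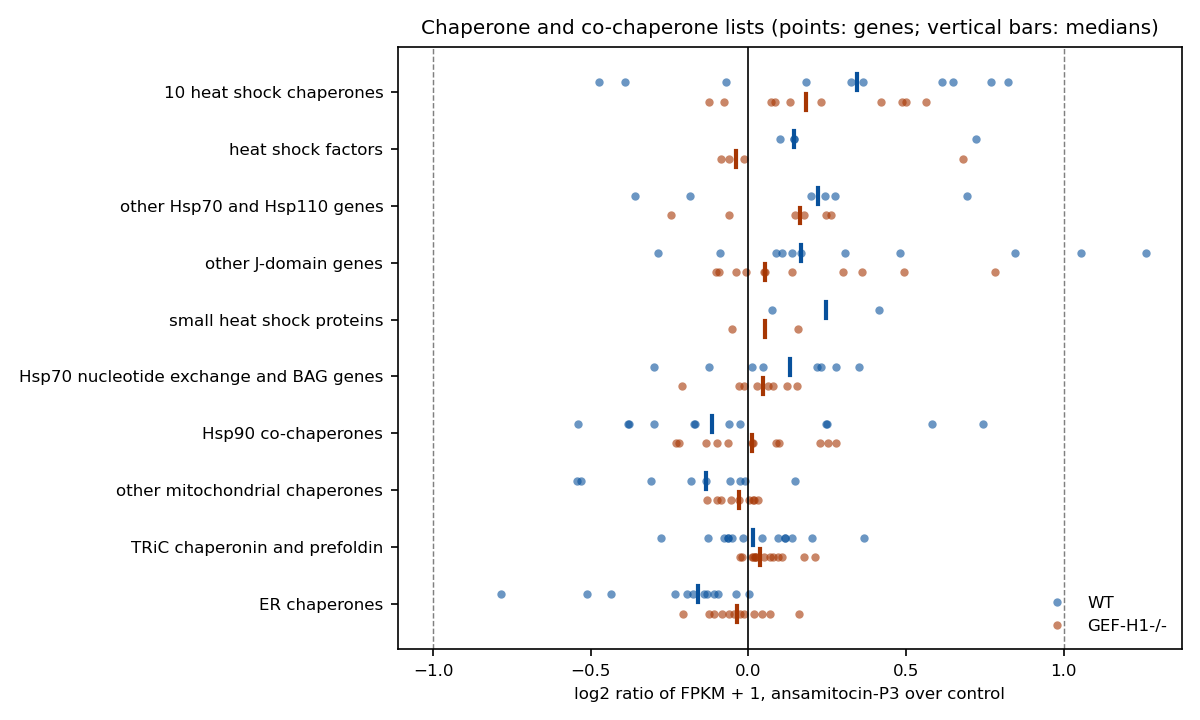
Log2 ratio of FPKM + 1, ansamitocin-P3 over control, for each gene past the filter in the 10 heat shock chaperones and 9 related lists, in WT and GEF-H1-/- DCs; vertical bars are medians and dashed lines mark the 2-fold rule. The medians of the 10 chaperones are 0.34 for WT and 0.18 for GEF-H1-/- DCs, and 2 J-domain genes, *Dnajb5* and *Dnajb2*, lie past the dashed line in WT DCs.

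The genes whose pattern over the 4 groups was most like that of *Hspa1a* and *Hspa1b* were found among 8809 candidates by the distance between log2(FPKM + 1) profiles centred on their mean, where 0 is an identical profile. They were *Zmynd15* at a distance of 0.0390, *Atp6v0a1*, which encodes a subunit of the vacuolar proton pump, at 0.0562, *Ppfibp1* at 0.0592, *Lyrm1* at 0.0614 and *Tmem39a* at 0.0617. *Zmynd15* measured 2.78 FPKM in untreated WT cells, 5.10 in WT cells given the drug, 2.95 in untreated GEF-H1-/- cells and 4.78 in GEF-H1-/- cells given the drug. Within the set *Bag3* was nearest to the pair, at 0.0653, then *Hsp90aa1* at 0.187, and *Hspd1* was farthest, at 1.07. Without a pseudocount, added after the data were seen, the distances within the set were larger. They were 1.10 for *Bag3*, 1.24 for *Hsp90aa1* and 2.12 for *Hspd1*, because *Hspa1a* and *Hspa1b* lie near or below 1 FPKM. There the pseudocount shrinks ratios. The closeness of *Bag3* thus belongs to the scale of FPKM + 1. For *Zmynd15* and the other candidates the distance without a pseudocount was not computed. With 4 points per profile many genes lie close, and the measure describes likeness only.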

How the data were processed

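RNA of WT and GEF-H1-/- BMDCs, with or without ansamitocin-P3, was sequenced by the authors from stranded polyadenylated libraries as 35-base read pairs. The deposited FPKM were computed by the authors with Cuffdiff 1.05, per the labels on mm10, as 1 value per gene and group with the bounds of a 95% interval; read counts per library were not used here, so depth per library is unknown. The aligner and annotation behind the table are not given in the sources used here. WT columns carry no genotype name and were assigned by elimination. Columns of sample values not used numbered 0.

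In the table of 23356 genes, 107 without OK status were left out, and 11397 had at least 1 FPKM in at least 1 group. Ratios were taken as log2(FPKM + 1), with a 2-fold threshold (log2 of 1), and intervals of FPKM ratios from the interval widths (normal quantile 1.96, independent groups). Summed FPKM was 594706 to 734144 per group, so columns share no common total. *Adgre1* and *Pfdn6* were matched through older RefSeq symbols. Named genes were the 10 chaperones, genes of the chaperone lists past the threshold, expressed heat shock factors and the 5 nearest profiles. Of the immediate early and marker genes past the threshold with the drug, only *Dusp1* was named. *Itgax*, *Cd74*, *H2-Ab1*, *Dnaja3*, *Hspb3* and any gene named in the closing section outside this rule were chosen after their values were seen. The members and lists were chosen with earlier results of these data known. Alternatives covered pseudocounts, filters, thresholds, 2 rescalings and summing *Hspa1a* with *Hspa1b*. Promoter sequences were from RefSeq (GRCm38.p6), and 35-base sharing from GENCODE transcripts. The scripts were tested on simulated data, with starting levels above those of *Hspa1a* and *Hspa1b*. The test thus did not cover genes that start as low as this pair. Python 3.11.15, numpy 2.4.6, pandas 2.3.3 and matplotlib 3.10.9 were used.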

Additional observations from a re-analysis of the deposited data

How the results depend on the processing

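Over 11 alternatives, 9 planned and 2 added after the data were seen, 521 of 551 compared log2 values, medians and counts stayed within their interval or within 1.5 times the count. Many of these could not move, so the tally is no measure of robustness. Changing the filter or summing the pair leaves the log2 values of the other kept genes as they were. The counts of intervals apart do not depend on the pseudocount. No paired analysis was possible because the table holds 1 pooled value per group, and for the same reason no library could be left out. Counts of 0 genes changed by the 2-fold rule became 2 in WT and 1 in GEF-H1-/- DCs with a pseudocount of 0.1 FPKM, 2 and 2 with no pseudocount, 1 in WT with *Hspa1a* and *Hspa1b* summed, and, at 1.5-fold, 4 in WT and 1 between treated genotypes. Counts of genes higher with intervals apart, 4 in WT and 2 in GEF-H1-/- DCs, became 2 and 0 with a filter of 5 FPKM and with only the 8 genes at 1 FPKM or more in every group, 2 and 1 after rescaling to housekeeping genes, and 1 in GEF-H1-/- DCs with the pair summed. Under housekeeping rescaling *Hspa1a* fell under the filter, the WT intervals of *Hsp90aa1* overlapped, and those of *Hspd1* came apart, with treated WT DCs lower. That rescaling moved the median log2 ratio of all genes by -0.12 for the drug in WT DCs and by 0.17 between treated genotypes. It turned the sign of 4 small log2 values: *Dnajb1* between controls from -0.04 to 0.02, *Hsp90ab1* between treated genotypes from -0.04 to 0.16, *Hspa1b* there from -0.08 to 0.04, and the genotype difference of *Hsp90ab1* from 0.10 to -0.03. The 16 of 415 single-gene values that moved were all of *Hspa1a* or *Hspa1b* under another pseudocount: the WT log2 ratio of *Hspa1a*, 0.82, was 0.23 with 5 FPKM and 2.16 with 0.1 FPKM.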

Other observations

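*Hspa1l*, the third Hsp70 gene of the cluster, lies 546 bases from *Hspa1a* and was looked at for that position after its values were seen. It measured 0.433 FPKM in untreated WT cells, 1.32 in WT cells given the drug, 0.623 in untreated GEF-H1-/- cells and 0.798 in GEF-H1-/- cells given the drug. Its intervals lay apart for WT and overlapped for GEF-H1-/- DCs, with log2 ratios of FPKM + 1 of 0.70 and 0.15. The ratio of FPKM itself was 3.05 (1.79 to 5.20) for WT and 1.28 (0.765 to 2.14) for GEF-H1-/- DCs. The ratio in WT divided by that in GEF-H1-/- DCs was 2.38 (1.14 to 5.00). The gene was picked after its values were seen, so a genotype difference was not tested. It reached 1 FPKM only in treated WT DCs, so it passed the filter through the group in which it is high, and whether its response differs from that of *Hspa1a* was not tested.

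Among immediate early genes, which answer to stress and growth signals within minutes, 8 of 10 passed the filter. By the 2-fold rule 5 rose in WT DCs and 3 rose in GEF-H1-/- DCs. Of all genes 4.94% and 1.08% passed that rule, in either direction. With intervals apart, 5 of the 8 were higher (9.19% of all genes) and 1 was lower (7.58%) in treated WT DCs. In treated GEF-H1-/- DCs 4 of the 8 were higher (2.75%) and 0 were lower (0.956%). *Dusp1*, which encodes a phosphatase of MAP kinases, measured 14.3 and 128 FPKM in control and treated WT DCs and 15.0 and 78.3 in GEF-H1-/- DCs. The medians of the list were 1.30 and 0.57, beside 0.34 and 0.18 for the 10 heat shock chaperones. The 8 housekeeping genes had medians of 0.15 for WT and 0.02 for GEF-H1-/- DCs, with 0 past the rule.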
